A study of Mus musculus with 9 samples.

Results

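Stem and myeloid growth factors and their receptors were followed in sorted bone marrow stromal cells of the mouse. The set held 9 genes, chosen by name: the factors Kitl, Csf1, Il34, Flt3l, Thpo and Il15, and the receptors Kit, Csf1r and Flt3. Of these, 8 had a row with a single gene symbol, 1 row each, among the 21789 such rows of 9 Affymetrix Mouse Gene ST 1.0 arrays. Thpo had none and was not analysed here. Stromal cells of a CD45-Lin-CD54+BP1+ gate were sorted from young adult C57Bl/6J mice aged 6 to 12 weeks. CD45 marks leucocytes, Lin stands for markers of mature blood lineages, CD54 is the adhesion molecule Icam1 and BP1 is the peptidase Enpep.

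The YFP-positive group (3 arrays) held the YFP+ cells of that gate from mice with an IL7-Cre transgene and a heterozygous Rosa-eYFP reporter. The wild-type group (3 arrays) held the whole gate from mice with neither allele, and so included cells that a reporter would leave unmarked. The YFP-negative group (1 array, 2300 cells) held the YFP- cells of the gate from the reporter genotype. Total bone marrow cells of wild-type mice (2 arrays, 10 ng of RNA each) were the control, and sorted samples held 1800 to 10000 cells. YFP reports past as well as present activity of the Cre transgene, so it is not a direct readout of Il7 at the time of the sort. Labels do not say whether the arrays of a group come from separate animals or pools, so p-values measure the spread between these samples, which may be technical.

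Values are log2 signals made by robust multi-array averaging (RMA), and a difference of 1 is a doubling. The 8 arrays other than YFP-negative had medians of 4.51 to 4.60, and the YFP-negative array had a median of 3.46. Comparisons with that array therefore use values after cyclic loess normalization of all 9 arrays, which removes such a shift, and the other comparisons use the values as deposited. The median over all arrays (4.43 as deposited, 4.53 after loess) is used below as a stated mark for dim signals, not as a detection limit. The gate could be checked on its own genes. Ptprc, which encodes CD45, lay at 3.66 to 3.80 in YFP-positive and 3.60 to 3.70 in wild-type arrays, against 9.69 and 9.75 in total marrow. Icam1 lay at 6.20 to 6.81 in YFP-positive and 6.31 to 6.61 in wild-type arrays, against 5.31 and 5.38 in total marrow. Enpep lay at 5.91 to 7.73 in YFP-positive and 7.18 to 7.49 in wild-type arrays, against 4.0 and 4.11 in total marrow. All 12 of 12 listed markers of reticular stroma, such as Lepr and Cxcl12, were higher than in total marrow in both groups, with a median change of 6.38 in YFP-positive cells and 6.44 in wild-type cells. Of all rows, 11.0% were called higher in YFP-positive cells and 10.4% in wild-type cells. That list was chosen with earlier results of these data known, so it is a description and not an independent check of the gate.

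Blood formation in the marrow depends on factors that stromal cells present or secrete and on receptors carried by blood cells. Kitl, stem cell factor, signals through the receptor tyrosine kinase Kit and maintains haematopoietic stem cells, and perivascular stroma that expresses the leptin receptor is a known source of it. Csf1 and Il34 are separate ligands of a shared receptor, Csf1r, which carries survival signals to monocytes, macrophages and osteoclasts. Flt3l acts through Flt3 on lymphoid and dendritic progenitors, and Il15 is a survival factor of natural killer cells and memory T cells that is presented in complex with Il15ra.

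Sorted stroma was high in Kitl, Csf1 and Il34 and low in Csf1r and Flt3, relative to total marrow. In YFP-positive cells, 4 of the 8 measured members were higher, 2 were lower and 2 were not called. The background was 11.0% of all rows called higher and 18.5% called lower at an adjusted p under 0.05 (limma with Benjamini-Hochberg adjustment over all rows). In wild-type cells the counts were the same, 4 higher, 2 lower and 2 not called, over a background of 10.4% of rows called higher and 13.9% called lower. The 4 higher members were factors (of 5 measured) and the 2 lower ones were receptors (of 3 measured). The median change of the members was 0.46 in YFP-positive cells and 1.14 in wild-type cells, beside 0.09 and 0.0001 over all rows. Both comparisons use the same 2 total marrow arrays, so their agreement is partly shared.

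**Figure D1:**
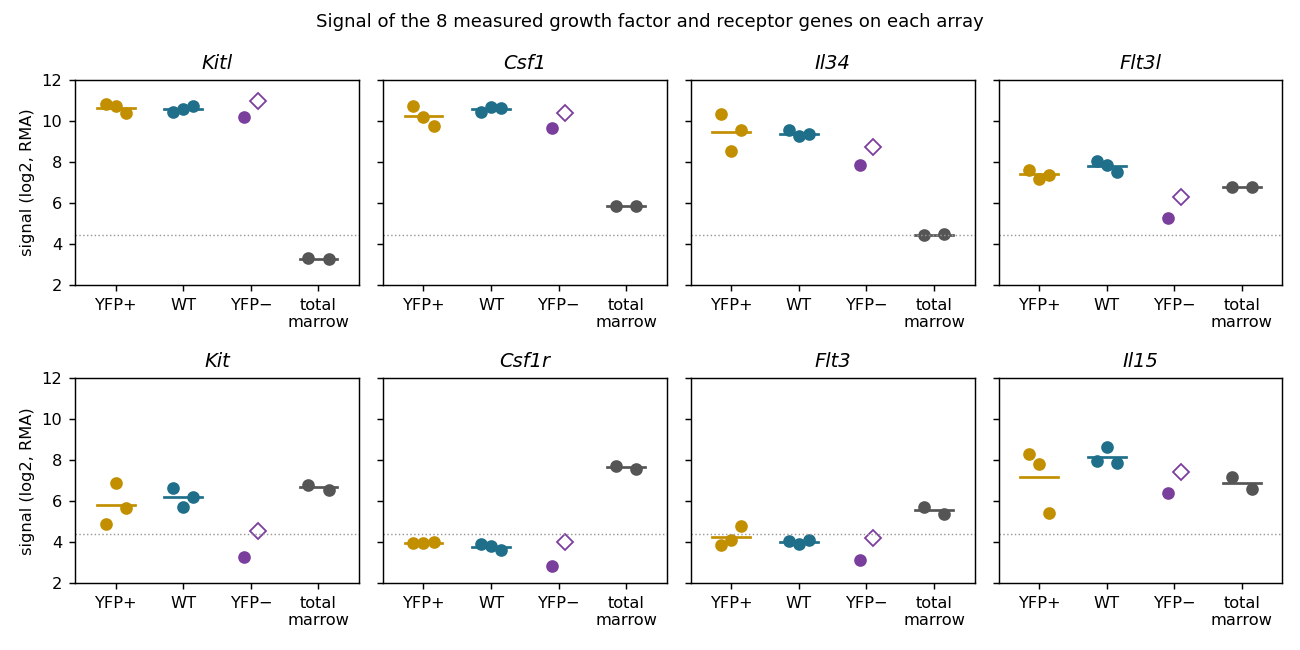
Log2 RMA signal (vertical axis) of the 8 measured members on each array, by group along the horizontal axis; filled points are deposited values, bars are group means, the open diamond is the YFP-negative array after cyclic loess and the dotted line is the median of all deposited values. Kitl, Csf1 and Il34 sit far above total marrow in every sorted array, Csf1r sits far below it, and Kit and Il15 spread widely within the sorted groups.

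Kitl had signals of 10.84, 10.71 and 10.38 in YFP-positive cells and 10.43, 10.59 and 10.72 in wild-type cells, against 3.32 and 3.26 in total marrow. Every sorted array was above both marrow arrays by a wide margin, and the YFP-positive and wild-type values interleaved. The change was 7.35 (SE 0.16, limma adjusted p = 1.38e-07) in YFP-positive cells and 7.29 (SE 0.16, adjusted p = 1.29e-07) in wild-type cells. On the linear scale these are 163-fold (95% interval 125 to 212) and 156-fold (120 to 203). Total marrow lay under the median of all values, and dim signals may understate a fold change. In bulk samples, fewer cells of a type and less RNA per cell cannot be told apart, here and in all results that follow.

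The factors that bind Csf1r were both high in the stroma. Csf1, the macrophage colony-stimulating factor, stood at 10.73, 10.18 and 9.76 in YFP-positive cells and 10.45, 10.65 and 10.62 in wild-type cells, against 5.85 and 5.85 in total marrow. The sorted groups overlapped with each other and neither overlapped with marrow. Its change was 4.38 (SE 0.26, adjusted p = 9.04e-06), or 20.8-fold, in YFP-positive cells and 4.73 (SE 0.26, adjusted p = 5.37e-06), or 26.5-fold, in wild-type cells. Il34, the alternative ligand known from epidermis and brain for supporting resident macrophages, stood at 10.35, 8.54 and 9.53 in YFP-positive cells and 9.53, 9.25 and 9.37 in wild-type cells, against 4.44 and 4.48 in total marrow. The 3 YFP-positive arrays spanned 1.82 log2 units, on both sides of the narrow wild-type range of 0.28. The change was 5.01 (SE 0.44, adjusted p = 9.97e-05) in YFP-positive cells and 4.92 (SE 0.44, adjusted p = 1.07e-04) in wild-type cells, or 32.3-fold and 30.3-fold.

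RefSeq promoter windows (250 bases before to 50 after the start, build GRCm38.p6) were on hand for 6 of the 9 members. They are shown for Kitl and Csf1, which were both high in stroma, and for Flt3, which was low. Capitals mark matches on either strand to TATAAA, the core of the TATA box, or to GGGCGG, the GC box. Sequences run 5′ to 3′ along the gene's strand, at chr10:100015571-100015870 (+) for Kitl, chr3:107760420-107760719 (-) for Csf1 and chr5:147400440-147400739 (-) for Flt3.
Kitl: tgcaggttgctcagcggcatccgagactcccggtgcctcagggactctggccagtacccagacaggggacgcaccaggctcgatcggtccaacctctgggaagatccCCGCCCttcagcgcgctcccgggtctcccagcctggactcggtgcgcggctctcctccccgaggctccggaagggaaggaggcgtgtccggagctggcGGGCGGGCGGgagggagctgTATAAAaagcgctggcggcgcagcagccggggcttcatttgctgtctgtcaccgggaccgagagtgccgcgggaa
Csf1: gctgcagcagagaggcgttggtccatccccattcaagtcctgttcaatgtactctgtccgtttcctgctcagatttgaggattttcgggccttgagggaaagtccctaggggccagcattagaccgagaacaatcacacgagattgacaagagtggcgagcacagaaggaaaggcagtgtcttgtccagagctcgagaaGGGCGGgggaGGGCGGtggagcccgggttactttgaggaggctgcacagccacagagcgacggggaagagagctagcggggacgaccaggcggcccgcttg
Flt3: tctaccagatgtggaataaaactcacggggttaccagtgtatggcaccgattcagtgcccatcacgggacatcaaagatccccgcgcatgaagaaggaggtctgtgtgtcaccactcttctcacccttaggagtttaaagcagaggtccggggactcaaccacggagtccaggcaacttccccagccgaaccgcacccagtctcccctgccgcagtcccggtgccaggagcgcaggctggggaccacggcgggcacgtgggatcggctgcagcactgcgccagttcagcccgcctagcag

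The Kitl window held TATAAA beginning 25 bases before the start. It also held GGGCGG at 45 and 41 bases before the start, overlapping each other by their ends, and the same motif on the opposite strand at 143 bases before it. The Csf1 window held GGGCGG at 51 and 41 bases before the start and no TATAAA. Neither set of letters occurs in this Flt3 window. Among the members not shown, each Kit window and the Flt3l window held 1 GGGCGG match, and the Thpo windows held 0 and 1. None of those windows held TATAAA. Of all 32851 windows of that length, 13.6% held TATAAA and 35.7% held GGGCGG on either strand, and 9.7% held GGGCGG at 2 or more places on the gene's strand. These matches describe the letters of the windows and nothing was measured of factors bound there.

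Flt3l and Il15 differed less. Flt3l, the ligand of Flt3, stood at 7.62, 7.18 and 7.37 in YFP-positive cells and 8.02, 7.85 and 7.51 in wild-type cells, against 6.80 and 6.78 in total marrow. All 6 of these sorted arrays were above marrow. The change was 0.60 (SE 0.19, adjusted p = 0.0482), or 1.52-fold, in YFP-positive cells and 1.01 (SE 0.19, adjusted p = 6.08e-03), or 2.01-fold, in wild-type cells. The YFP-positive call lay at the edge of the threshold and was lost in 9 of 17 alternative settings, with adjusted p between 0.00919 and 0.187. Without 1 array at a time it was 0.0990 lacking YFP-positive replicate 1, 0.0797 lacking replicate 3, 0.0756 lacking wild-type replicate 2, and 0.187 and 0.180 lacking total marrow replicate 1 or 2.

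Il15 stood at 8.32, 7.81 and 5.45 in YFP-positive cells and 7.95, 8.65 and 7.84 in wild-type cells, against 7.18 and 6.59 in total marrow. The third YFP-positive array was below both marrow arrays, while the other 5 of these sorted arrays were above them. The change was 0.31 (SE 0.77, adjusted p = 0.780) in YFP-positive cells and 1.27 (SE 0.77, adjusted p = 0.336) in wild-type cells, neither called. Il15 had the widest spread of the members, with a residual SD of 1.03 within groups, larger than that of 99.3% of all rows (median 0.20). Without the third YFP-positive array, Il15 was called in both comparisons, with changes of 1.18 (adjusted p = 0.0429) in YFP-positive and 1.27 (adjusted p = 0.0246) in wild-type cells. That array had the lowest quality weight of the 9 in limma's array weighting (0.311). With those weights in the fit, Il15 was called in neither comparison. Of 17 alternatives, Il15 was called in 1 for YFP-positive and in 2 for wild-type cells. Why that array differs was not tested.

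Of the receptors, Csf1r was uniformly dim in the sort. Csf1r had signals of 3.97, 3.97 and 4.02 in YFP-positive cells and 3.92, 3.83 and 3.62 in wild-type cells, against 7.73 and 7.58 in total marrow. All sorted values were under the median of all values and the groups did not overlap. The change was -3.67 (SE 0.13, adjusted p = 5.79e-07) in YFP-positive cells and -3.86 (SE 0.13, adjusted p = 4.14e-07) in wild-type cells. The signal was thus 12.7-fold (95% interval 10.4 to 15.6) and 14.6-fold (11.9 to 17.9) lower than in marrow, and dim signals may understate a fold change. Its residual SD of 0.11 was the smallest of the members. Of 14 listed monocyte and macrophage markers, 12 were lower and 2, Vcam1 and Mertk, were higher in both sorted groups than in marrow. The shares of all rows were 18.5% lower and 11.0% higher in YFP-positive cells, and 13.9% and 10.4% in wild-type cells. Vcam1 is also on the list of reticular stroma. The summed signal of the other 13 on the linear scale was 243 to 590 in YFP-positive and 198 to 220 in wild-type arrays, against 6040 to 7570 in total marrow. With Vcam1 it was 2380 to 3450 in YFP-positive and 2960 to 3420 in wild-type arrays, against 6290 to 7940 in marrow. Of all 14, 4 to 5 in YFP-positive and 3 to 4 in wild-type arrays exceeded the median of all values, against 13 in marrow. Lyz2, a monocyte and granulocyte enzyme, was at 8.34 in the first YFP-positive array and at 3.57 to 4.55 in the other 5 of these sorted arrays, while Csf1r in that first array was 3.97. The 9 neutrophil markers summed to 4030, 1255 and 153 in YFP-positive and 1282, 200.4 and 144 in wild-type arrays, against 38130 and 36890 in marrow. The same first array was the highest of the sort in that sum. The calls of Csf1r against marrow held in all 17 alternatives, which included leaving that array out. Why that array was high in these transcripts was not tested.

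Flt3 stood at 3.89, 4.14 and 4.80 in YFP-positive cells and 4.08, 3.91 and 4.09 in wild-type cells, against 5.74 and 5.39 in total marrow. The third YFP-positive array was the highest of the sort, yet it too was below marrow. The change was -1.29 (SE 0.26, adjusted p = 8.12e-03) in YFP-positive cells and -1.54 (SE 0.26, adjusted p = 3.67e-03) in wild-type cells. These are 2.44-fold (95% interval 1.6 to 3.72) and 2.90-fold (1.9 to 4.42) lower. Both sorted means were under the median of all values, and dim signals may understate a fold change. Without total marrow replicate 1 the YFP-positive change was -1.11 and was no longer called (adjusted p = 0.0798). Of 10 listed dendritic cell markers, 7 were lower in both sorted groups and none was higher, where 18.5% and 13.9% of all rows were lower. Siglech, a plasmacytoid dendritic cell lectin, stood at 3.63 to 3.88 in YFP-positive and 3.28 to 3.57 in wild-type arrays, against 7.61 and 7.42 in marrow.

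Kit was the receptor not called against marrow in either group. Kit, the receptor of Kitl on stem cells, progenitors and mast cells, had signals of 4.92, 6.87 and 5.66 in YFP-positive cells and 6.66, 5.70 and 6.20 in wild-type cells, against 6.78 and 6.57 in total marrow. All 6 of these sorted values were above the median of all values, and both sorted groups overlapped with marrow. The change was -0.86 (SE 0.53, 95% interval -2.09 to 0.38, adjusted p = 0.261) in YFP-positive cells and -0.49 (SE 0.53, 95% interval -1.72 to 0.75, adjusted p = 0.642) in wild-type cells. These intervals leave room for a fall of more than 1 log2 unit and for a small rise. The residual SD of 0.70 exceeded that of 97.0% of rows. Without YFP-positive replicate 2, the array highest in Kit, the YFP-positive change was -1.39 and was called (adjusted p = 0.0281).

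Transcripts of Kit-bearing blood cells were set beside these values. Myb, a transcription factor of progenitors, stood at 4.39, 4.57 and 4.16 in YFP-positive cells and 3.79, 3.87 and 4.72 in wild-type cells, against 9.50 and 9.41 in marrow. Of the 8 measured mast cell markers other than Kit, none exceeded the median of all values in the wild-type arrays and at most 1 did in a YFP-positive array, against 3 in marrow. Their summed signal was 89.9 to 124 in YFP-positive and 77.9 to 84.8 in wild-type arrays, against 689 to 799 in marrow. Fcer1a and Cpa3, genes of the high-affinity IgE receptor and of a mast cell protease, were picked from these 8 after their values were seen. Both had their highest sorted values in the YFP-positive array highest in Kit, at 4.98 and 4.20, against 3.13 to 3.33 and 3.12 to 3.56 in the other 5. Whether the rest of the 8 follow Kit across the arrays was not tested. In wild-type replicate 1, with Kit at 6.66, Fcer1a was 3.30, Cpa3 was 3.36 and Ptprc was 3.70.

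None of the 5 granulocyte progenitor markers was called between YFP-positive and wild-type cells, where 0% of all rows were. Their summed signal was 181 to 469 in YFP-positive and 92.9 to 128 in wild-type arrays, against 8390 to 9080 in marrow. Mpo, the myeloperoxidase of early granulocytes, stood at 7.80, 8.01 and 6.06 in YFP-positive cells and 4.19, 4.14 and 4.76 in wild-type cells, a difference of 2.93 (limma adjusted p = 0.104). The first YFP-positive array was second highest of the 3 in Mpo and lowest in Kit. The listed stem and progenitor markers, 10 measured without Kit and Flt3, summed to 326 to 384 in YFP-positive and 330 to 405 in wild-type arrays, against 1640 to 1720 in marrow. The part of admixed blood cells in the Kit signal was not tested.

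**Figure D2:**
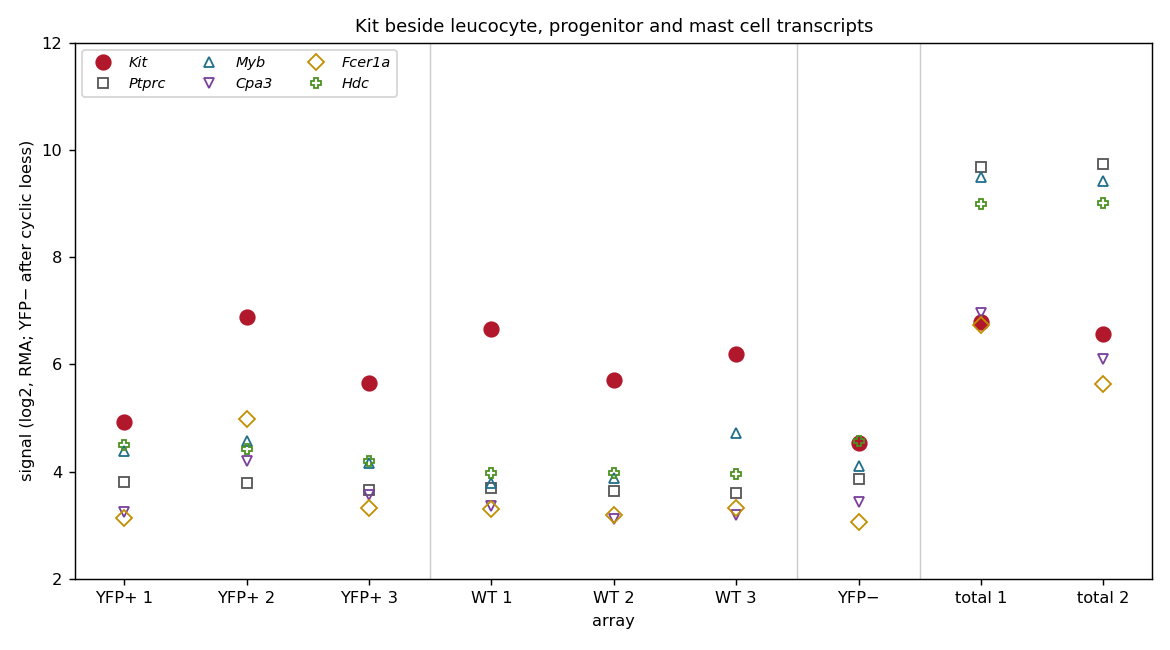
Log2 signal (vertical axis) of Kit and of leucocyte (Ptprc), progenitor (Myb) and mast cell (Cpa3, Fcer1a, Hdc) transcripts on the 9 arrays along the horizontal axis, with the YFP-negative array after cyclic loess. Kit in the 6 YFP-positive and wild-type arrays lies at 4.92 to 6.87, against 6.57 and 6.78 in total marrow, while Ptprc lies near 4 in every sorted array and above 9 in marrow.

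No difference between YFP-positive and wild-type cells was called. This held for the 8 members and for every other row in the limma fit (0% of 21789; smallest adjusted p 0.068; 3250 rows had an unadjusted p under 0.05). The differences, YFP-positive minus wild type, were 0.06 for Kitl (95% interval -0.28 to 0.40), -0.35 for Csf1 (-0.88 to 0.18), 0.09 for Il34 (-0.84 to 1.02) and 0.20 for Csf1r (-0.07 to 0.46). Of these 4 intervals, only that of Il34 reaches a full log2 unit. The difference was -0.40 for Flt3l (-0.80 to -0.01), 0.25 for Flt3 (-0.30 to 0.79), -0.37 for Kit (-1.47 to 0.73) and -0.96 for Il15 (-2.57 to 0.65). A difference of more than 1 log2 unit lies inside the intervals of Kit and Il15. The YFP-positive and wild-type values of 1 member, Csf1r, did not overlap, where 21.8% of all rows did not, and all of those values were dim.

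In the YFP-negative cells the same factors were high. Compared with total marrow after cyclic loess, 3 members were higher, 2 were lower and 3 were not called, over a background of 13.0% of rows called higher and 13.2% called lower. The single YFP-negative array was taken to vary as the replicated groups do, and a batch effect on it and the group cannot be told apart. Sizes of change after loess are not on the scale of those given above as deposited. The marrow mean of Kitl was 3.29 as deposited and 2.73 after loess, and its YFP-negative value was 10.19 as deposited. Kitl had 10.98 in YFP-negative cells, against 2.71 and 2.75 in marrow, a change of 8.24 (SE 0.17, adjusted p = 6.37e-07). Csf1 changed by 5.13 (SE 0.26, adjusted p = 1.00e-05) and Il34 by 4.76 (SE 0.60, adjusted p = 1.03e-03). Csf1r changed by -3.63 (SE 0.14, adjusted p = 3.32e-06) and Flt3 by -1.36 (SE 0.32, adjusted p = 0.0193). Without total marrow replicate 1 the change of Flt3 was -1.18 and was not called (adjusted p = 0.0915). On the values as deposited, with the shift of that array left in, Flt3l changed by -1.51 and Kit by -3.37 against marrow.

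Flt3l was lower in the single YFP-negative array than in the other sorted arrays. After cyclic loess it stood at 6.31 in YFP-negative cells, beside 7.47, 7.08 and 7.47 in YFP-positive cells, 7.79, 7.48 and 7.24 in wild-type cells and 6.35 and 6.44 in total marrow. The YFP-negative value was thus below all 6 other sorted arrays and next to marrow, from which it differed by -0.09 (SE 0.26, adjusted p = 0.842). Against wild type the difference was -1.20 (SE 0.24, adjusted p = 0.0424), the single call among the 8 members, where 4.56% of all rows were called in either direction. That call held in 7 of 17 alternatives. It was lost without any 1 of the wild-type or total marrow arrays, with adjusted p of 0.0775, 0.0934 and 0.0522 lacking wild-type replicate 1, 2 or 3 and 0.0872 lacking either marrow array. Against YFP-positive cells, none of the 8 was called, where 3.98% of rows were, and Flt3l differed by -1.03 (SE 0.24, adjusted p = 0.0626). On the values as deposited, with the shift of that array left in, Flt3l differed by -2.51 from wild type and by -2.11 from YFP-positive cells.

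Kit was also lowest in the YFP-negative array. After cyclic loess it was 4.54 in YFP-negative cells, beside 4.82, 6.79 and 5.71 in YFP-positive cells, 6.50, 5.45 and 6.03 in wild-type cells and 6.53 and 6.38 in marrow. The differences were -1.24 from YFP-positive (adjusted p = 0.349), -1.45 from wild type (adjusted p = 0.268) and -1.92 from total marrow (adjusted p = 0.0981), none called. The difference from marrow ranged from -3.37 to -1.79 over 17 alternatives and was called in 6 of them. Among those 6 were the values as deposited, with the shift left in, and the fits without YFP-positive replicate 1 or 2. Kitl differed by 0.36 from YFP-positive (adjusted p = 0.262) and by 0.70 from wild type (adjusted p = 0.0592). Il15 stood at 7.42 in YFP-negative cells, within the range of the YFP-positive arrays, and its difference from marrow was 0.95 (95% interval -1.27 to 3.17, adjusted p = 0.521). Cd34, an antigen of progenitors and of some stromal and endothelial cells, was higher in the YFP-negative array, by 2.58 against YFP-positive (adjusted p = 2.11e-03) and by 2.57 against wild type (adjusted p = 2.19e-03).

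**Figure D3:**
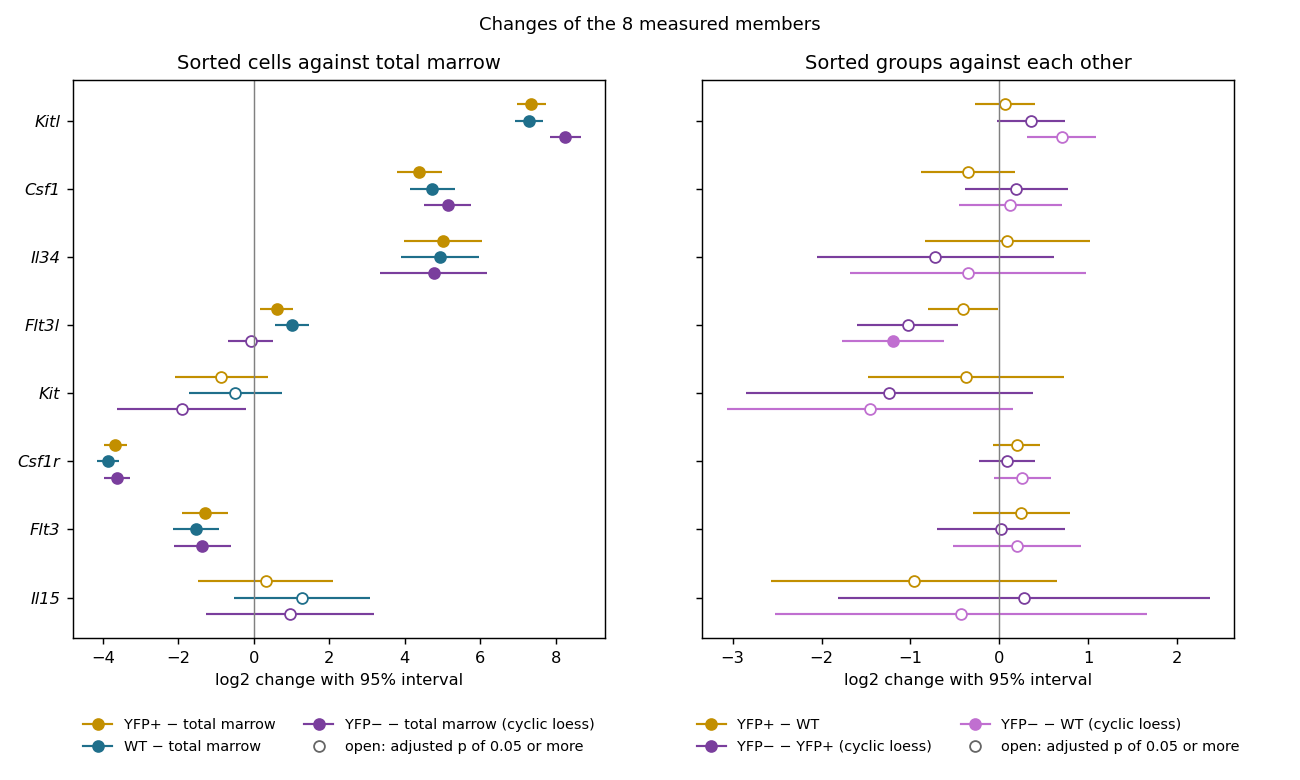
Log2 changes (horizontal axis) of the 8 members with 95% intervals from limma, for the sorted groups against total marrow (left) and against each other (right); filled points have an adjusted p under 0.05. Kitl, Csf1 and Il34 lie far right of 0 in all comparisons with marrow and Csf1r far left, whereas the single filled point among the sorted groups is Flt3l in YFP-negative minus wild type, at -1.20.

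In order of level, the sorted groups came first for Kitl, Csf1 and Il34, with no call among them, and total marrow came below. For Csf1r and Flt3 marrow came above the sorted groups, again with no call among those. For Kit and Il15 no pair of groups was separated by a call. The closest profiles, by Pearson's r over the 8 arrays without YFP-negative, describe mainly the step between sorted cells and marrow. For Kitl they were Antxr1, Cp and Plxdc2 (r of 0.9998, 0.9998 and 0.9996). For Csf1 they were Ccl19, Serpinh1 and Fgf7 (0.9992, 0.9987 and 0.9986), and for Il34 Tmem140, Zfp618 and Wwtr1 (0.9957, 0.9947 and 0.9943). For Flt3l they were Sirt4, Fgd1 and BC034090 (0.9833, 0.9811 and 0.9802). For Csf1r they were Rdh12, Padi4 and Dntt (0.9997, 0.9996 and 0.9996), and for Flt3 Cela1, Trim10 and Gp5 (0.9934, 0.9880 and 0.9878).

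Partner genes of the receptors were set beside them. Kit, Csf1r and Flt3 belong to the class III receptor tyrosine kinases with Pdgfra and Pdgfrb, the receptors of platelet-derived growth factor on mesenchymal cells. Pdgfra was higher than marrow by 5.62 in YFP-positive cells and 5.53 in wild-type cells, and Pdgfrb by 6.60 and 6.46, all called. The family thus had 2 members higher, 2 lower and 1, Kit, not called in both groups. Over all rows, 11.0% were called higher and 18.5% lower in YFP-positive cells, and 10.4% and 13.9% in wild-type cells. The lower ones were Csf1r and Flt3, described above, and Pdgfra and Pdgfrb are also on the list of reticular stroma. Of the Il15 receptor subunits, Il2rb was lower by 2.60 in YFP-positive (change -2.60) and 2.80 in wild-type cells (change -2.80). Il15ra, which presents Il15 on the producing cell, changed by -0.38 (adjusted p = 0.143) and -0.49 (adjusted p = 0.0816), and Il2rg was not analysed here. Of 3 further receptors of Il34, the syndecan Sdc1 was higher by 2.20 in YFP-positive cells and 2.83 in wild-type cells. Trem2 changed by -0.31 and -0.54 (adjusted p = 0.160 and 0.0356), and Ptprz1 by 0.12 and 0.11, not called.

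Of the other growth factors and niche signals of the marrow that were called, most were higher in the stroma. Among 16 measured, 6 were higher, 2 lower and 8 not called in YFP-positive cells, and the same counts held in wild-type cells. Over all rows, 11.0% were called higher and 18.5% lower in YFP-positive cells, and 10.4% and 13.9% in wild-type cells, so the share of these factors that was lower is near that of all rows. Their median change was 0.31 in YFP-positive cells and 0.39 in wild-type cells. The higher ones were the chemokine Cxcl12 (6.90 in YFP-positive cells and 6.96 in wild-type cells), the morphogen Bmp4 (5.90 and 6.73), Il7 (3.91 and 4.52), Angpt1 (3.23 and 3.81), Igf1 (3.0 and 3.58) and Ptn (2.67 and 3.63). The inflammatory cytokines Osm (-4.65 and -4.84) and Il6 (-2.28 and -2.53) were lower. Csf2, Csf3, Il3 and Epo were not called in either group, with changes between -0.19 and 0.28.

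Of the receptors of those factors that were called, most were lower in the stroma. Among 13 measured, 3 were higher, 7 lower and 3 not called in both groups (the same shares of all rows apply), with a median change of -1.17 in YFP-positive cells and -1.24 in wild-type cells. Csf3r, the receptor of the granulocyte factor, changed by -5.33 and -5.47, Il7r by -4.25 and -4.49, and Cxcr4 by -4.11 and -4.17. Il6ra, the binding subunit of the Il6 receptor, changed by -2.79 and -3.03. Lifr, Osmr and Il6st, which combine into receptors of leukaemia inhibitory factor and oncostatin M, changed by 5.98 and 5.92, 5.58 and 5.06, and 2.91 and 2.97.

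**Figure D4:**
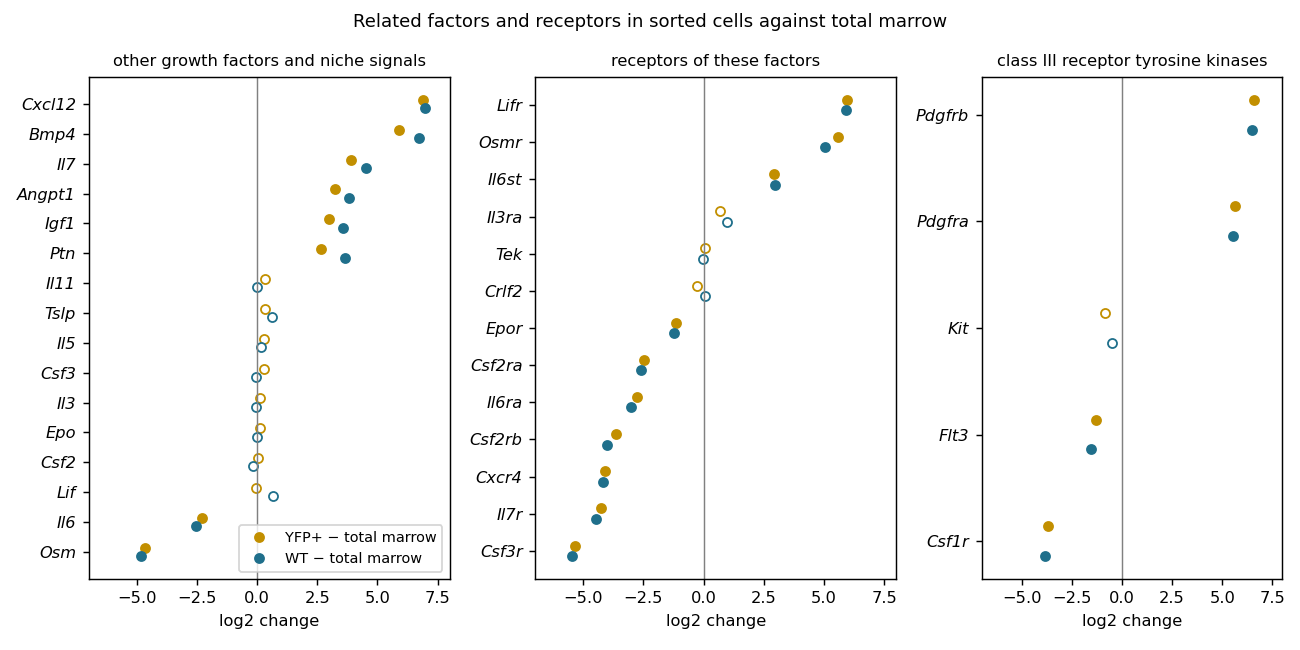
Log2 change against total marrow (horizontal axis) in YFP-positive and wild-type cells for listed growth factors and niche signals, for their receptors and for the class III receptor tyrosine kinases; filled points have an adjusted p under 0.05. Cxcl12, Bmp4, Lifr, Osmr, Pdgfra and Pdgfrb lie right of 5 in both groups, Csf3r lies left of -5, and Kit is the open point among the kinases.

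Membrane-bound Kitl, Csf1 and Flt3l can be released by proteases. Of 8 such proteases and regulators, 3 were higher in both groups: the membrane metalloproteinase Mmp14 (3.98 in YFP-positive cells and 4.31 in wild-type cells), Adam9 (1.89 and 2.34) and the convertase Furin (0.87 and 0.79). Mmp9, a secreted metalloproteinase of granulocytes, was lower by changes of -3.87 and -4.53, and Rhbdf2 by -1.75 and -1.77. Adam19 was lower in YFP-positive cells (-0.75, adjusted p = 0.0204) and not called in wild-type cells (-0.39, adjusted p = 0.199). Adam17 and Adam10 were not called in either. Against marrow, this list thus held 3 higher and 3 lower genes for the YFP-positive group (median change -0.17). For the wild-type group it held 3 higher and 2 lower (median change 0.08). Background shares were 11.0% of rows higher and 18.5% lower for the YFP-positive group. They were 10.4% and 13.9% for the wild-type group.

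Of 32 measured genes that carry signals of haematopoietic receptors such as Kit, Csf1r and Flt3 inside the cell, 6 rose and 15 fell in YFP-positive cells, and 9 rose and 13 fell in wild-type cells. Over all rows, the higher share was 11.0% in YFP-positive and 10.4% in wild-type arrays, and the lower share was 18.5% and 13.9%. The lower ones were led by Tyrobp, the adaptor of myeloid cells (-5.75 in YFP-positive cells and -6.56 in wild-type cells), the phosphatases Inpp5d (-4.16 and -4.27) and Ptpn6 (-3.86 and -4.15) and the exchange factor Vav1 (-3.86 and -4.00). Among the higher ones were Socs2 (4.02 and 4.57) and Socs3 (2.50 and 2.74), feedback inhibitors of cytokine signalling, and Spred1 (1.87 and 1.86), an inhibitor of the Ras pathway. Of 18 transcription factors of the receptor-bearing cells, 3 were higher and 13 lower in both groups. Spi1, which activates Csf1r in myeloid cells, changed by -5.83 and -6.06, Myb by -5.08 and -5.33 and Ikzf1 by -4.60 and -4.68. Runx1 (2.44 and 2.57), Hoxa9 (1.96 and 2.40) and Cebpa (1.75 and 2.14) went the other way. These lists share cells with the leucocyte markers, of which 8 of 8 were lower in both groups, with a summed signal of 190 to 508 in YFP-positive and 285 to 447 in wild-type arrays, against 15300 to 16000 in marrow.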

How the data were processed

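RNA of sorted or total marrow cells was amplified with the NuGEN Ovation Pico kit and hybridised to 9 arrays, per the labels' protocols. The authors deposited log2 signals for 35556 rows, made with RMA in Affymetrix Expression Console 1.3.1, per the submitters' processing notes. It is not given in the sources used here whether all arrays were summarised together. The 21789 rows with exactly 1 gene symbol in the platform annotation were tested, with no filter on low signals. Another 1621 rows with several genes and 12146 with none were left out.

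All 9 arrays entered a fit with a mean per group (limma 3.58.1 in R 4.3.3, eBayes defaults), on deposited values or, for comparisons with the YFP-negative array, after cyclic loess. Two-sided p-values were adjusted over all rows by the Benjamini-Hochberg method, and a row was called under 0.05. The fit was tested on simulated data. The number of arrays limits the precision.

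The members and 24 lists (235 genes, 219 measured) were chosen with earlier results of these data known. Named genes were all members, their 3 closest profiles, receptor subunits, gate genes, and from each list up to 4 of the largest changes plus those that moved against the rest. Others (such as Lyz2, Mpo, Siglech, Fcer1a, Cpa3, Myb, Cd34 and the uncalled growth factors) were named after their values were seen. Alternatives were other normalizations, row filters, fits, a replicate block and leaving out each array. Promoter windows are RefSeq's.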

Additional observations from a re-analysis of the deposited data

Results flagged for a closer look

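Flt3l differed between the YFP-negative and the wild-type cells of the same gate, by -1.20 on the log2 scale after cyclic loess (adjusted p = 0.0424 in limma), while both were compared with the same total marrow. It drew attention because the sorted groups otherwise shared their changes of the members against marrow. The YFP-negative value of 6.31 was below each of the 3 wild-type arrays (7.24 to 7.79). It rests on 1 array and held in 7 of 17 alternatives, and the cause was not tested.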

How the results depend on the processing

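Of 816 alternative values, 748 kept direction and call, 21 lost a call, 19 gained 1, 23 changed sign with no call on either side, and 5 reversed. The 5 reversals all used values as deposited, with the YFP-negative shift left in: Csf1r -1.12 and Flt3 -1.12 against YFP-positive, and Csf1 -0.91, Csf1r -0.93 and Flt3 -0.87 against wild type. The calls of Kitl, Csf1, Il34 and Csf1r against marrow held in all 17 alternatives for each sorted group.

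Rows called in YFP-negative minus YFP-positive were 867, and 16522 (5 members) as deposited, 2512 (1 member) after a median shift, 1683 after quantile normalization, 479 without dim rows, 0 with the 2 groups alone, and 244 to 1221 with 1 array left out. In YFP-negative minus wild type they were 994 (1 member), and 16353 (6 members) as deposited, 4458 after a median shift, 1720 after quantile normalization, 488 (0 members) without dim rows, 2091 (2 members) with array weights, 264 (0 members) with the 2 groups alone, and 185 to 1722 (0 to 1 members) with 1 array left out. No member was called there on all rows of the file or with a trended, robust fit (0 members each). In YFP-negative minus total marrow they were 5719, and 15666 as deposited, 8987 after a median shift and 8885 with the 2 groups alone. In YFP-positive minus wild type they were 0, and 1 on all rows of the file, 9 with a trended, robust fit and 0 to 26 with 1 array left out. Against marrow, leaving out 1 array gave 3636 to 6622 rows for YFP-positive (6422 with all) and 3398 to 5980 for wild type (5291 with all). The causes were not tested, beyond the smaller number of arrays or rows.

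The labels do not say that a number pairs samples, so the numbers were not taken as pairs. Deviations from the group means had r of -0.058, -0.025 and -0.007 between same-numbered YFP-positive and wild-type arrays. Differently numbered ones had r of -0.12 to 0.159. With 3 arrays a group, such values cannot exclude pairing. With the number as a replicate block, 5 rows (0 members) were called in YFP-negative minus YFP-positive and 6 rows (0 members) in YFP-negative minus wild type, and the other counts stayed within 1.5 times. The planned averaging over several rows of a gene was not run, since each measured member has 1 row. With 1 to 3 arrays a group, small changes could not be resolved, and dim signals may understate a fold change.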
